A study of Mus musculus with 9 samples.

Results

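The genes that write, maintain and erase DNA methylation were examined in 9 mouse embryonic stem cell (mESC) lines. The set comprised the maintenance methyltransferase Dnmt1 and its recruiter Uhrf1, the de novo methyltransferases Dnmt3a and Dnmt3b with their catalytically inactive partner Dnmt3l, the oxidases Tet1, Tet2 and Tet3, the glycosylase Tdg and the corepressor Trim28. A gene was counted when the array annotation gave its symbol alone to at least 1 transcript cluster, the set of probes that the array summarises into 1 value. This held for 9 of the 10 genes, with 12 of the 23410 annotated clusters. Tdg had no cluster of its own. Its 4 clusters also name the pseudogene Tdg-ps2, so they cannot tell the transcripts apart and are given only as shared values. Tet1 had 3 clusters and Tet3 had 2, and the one with the highest mean level stands for the gene unless stated otherwise.

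Each group held 3 lines on 1 array each, and every line grew from a single blastocyst of strain background C57BL/6. The females were hormone-primed in all 3 groups. For mESCFB (lines FB1, FB2, FB3) they were mated naturally and the blastocysts were flushed from them. For mESCKAA (KAA1 to KAA3) embryos made by in vitro fertilization (IVF) grew at 5% O2 in KSOM medium supplemented with amino acids, and for mESCWM (WM1 to WM3) IVF embryos grew at 20% O2 in Whitten's medium. After derivation, all lines shared the same conditions: fibroblast feeders, serum, leukemia inhibitory factor and the inhibitors of GSK3 and MEK known as 2i, then gelatin without feeders until collection at the eighth passage. The values are log2 levels made by robust multiarray averaging (RMA), so that a difference of 1 between lines is a doubling. Levels of different clusters depend on their probes and were not set against each other.

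In mammals, DNA methylation is placed on CpG sites by DNMT3A and DNMT3B, and DNMT3L stimulates both in germ cells and early embryos. After replication UHRF1 binds hemimethylated DNA and brings DNMT1 to it. TET enzymes oxidise the methyl group, and TDG removes the oxidised bases, which base excision repair then replaces. TRIM28 is brought to imprinted loci and retroviral elements by zinc finger proteins such as ZFP57 and keeps them silent and methylated. Embryonic stem cells of the naive state, which 2i favours, hold little DNA methylation, and Dnmt3b rises when cells leave that state.

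All 9 lines carried the defining markers of embryonic stem cells. Pou5f1 lay between 10.07 and 10.43, Sox2 between 8.62 and 9.17 and Nanog between 8.52 and 10.35 on the log2 scale. Of 23 measured feeder fibroblast markers, 13 had a mean level at or above the median of the tested clusters (4.67), and their mean levels ran from 1.82 for Lum to 9.12 for Vim. Lum, Dcn and Postn were low (1.82, 3.14 and 2.29), whereas Col1a1, Thy1, Fn1, Tagln and Vim lay at 5.02, 6.21, 8.08, 9.10 and 9.12. The mean level of this list ran from 4.77 to 4.81 in mESCFB, from 4.81 to 4.97 in mESCKAA and from 4.89 to 5.02 in mESCWM. All lines are labelled female, yet the Y-linked gene Eif2s3y read 4.78 in FB1, 3.72 in KAA2 and 5.19 in WM3 against 1.77 to 2.20 in the other 6 lines, and Uty was highest in the same 3 lines. The third Y-linked gene measured, Kdm5d, was not raised there (2.04, 1.96 and 2.04) and lay between 1.96 and 2.46 over all lines, with WM2 highest. The paper's methods typed the sex of lines by PCR of genomic DNA for SRY and put only female lines on the arrays. The Eif2s3y and Uty signals of FB1, KAA2 and WM3 thus go against the label and that typing, and main results are given with and without these lines. Whether fewer cells of a type or less RNA per cell lies behind a level cannot be told apart in bulk RNA.

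Since several of these genes varied together, the sequences in front of their starts are shown for the 4 genes with the closest correlations. These are Uhrf1, Tet3, Tet1 and Dnmt3a. Dnmt3b is shown beside them, with a Pearson's r with Tet1 of 0.0766 over the 9 lines and 0.623 without WM2. The RefSeq promoter table (GRCm38.p6) held all 10 genes, with 17 starts. Each line gives the 250 bases upstream of the first listed start, 5′ to 3′ on the strand of the gene. Capitals mark matches on either strand to the GC box GGGCGG, the CCAAT box CCAAT, the E2F-like words TTTGGCGC and TTTCGCGC, and the E-box CACGTG.
Uhrf1: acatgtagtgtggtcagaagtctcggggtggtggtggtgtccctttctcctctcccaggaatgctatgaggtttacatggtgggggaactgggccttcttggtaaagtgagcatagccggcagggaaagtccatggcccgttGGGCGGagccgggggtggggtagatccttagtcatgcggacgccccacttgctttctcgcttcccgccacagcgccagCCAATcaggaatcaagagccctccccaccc
Tet3: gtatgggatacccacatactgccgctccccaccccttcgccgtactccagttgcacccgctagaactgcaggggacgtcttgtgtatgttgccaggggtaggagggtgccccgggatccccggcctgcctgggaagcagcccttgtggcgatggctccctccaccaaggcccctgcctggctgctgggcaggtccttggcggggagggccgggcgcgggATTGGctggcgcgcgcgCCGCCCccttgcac
Tet1: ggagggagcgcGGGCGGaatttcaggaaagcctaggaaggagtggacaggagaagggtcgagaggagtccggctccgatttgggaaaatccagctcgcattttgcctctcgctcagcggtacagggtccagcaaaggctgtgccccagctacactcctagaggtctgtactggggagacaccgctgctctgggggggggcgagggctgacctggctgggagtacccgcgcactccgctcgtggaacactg
Dnmt3a: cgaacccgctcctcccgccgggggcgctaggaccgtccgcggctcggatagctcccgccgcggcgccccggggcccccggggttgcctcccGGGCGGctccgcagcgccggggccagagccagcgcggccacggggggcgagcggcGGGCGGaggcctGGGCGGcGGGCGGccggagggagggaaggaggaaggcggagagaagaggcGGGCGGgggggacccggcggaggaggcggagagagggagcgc
Dnmt3b: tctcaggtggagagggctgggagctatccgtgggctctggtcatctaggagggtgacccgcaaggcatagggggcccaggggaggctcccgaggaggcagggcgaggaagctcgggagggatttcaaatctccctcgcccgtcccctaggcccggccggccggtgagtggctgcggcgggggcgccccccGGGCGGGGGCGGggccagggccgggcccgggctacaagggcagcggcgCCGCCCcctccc
The windows lie at chr17:56303087-56303336 (plus strand) for Uhrf1, chr6:83441679-83441928 (minus) for Tet3, chr10:62887325-62887574 (minus) for Tet1, chr12:3806730-3806979 (plus) for Dnmt3a and chr2:153649199-153649448 (plus) for Dnmt3b. All 5 held at least 1 GC box, with 5 in the window of Dnmt3a and 3 in that of Dnmt3b, and 32.7% of all 32851 promoter windows of this length held 1 or more. Over the first starts of all 10 genes the GC box was found in 7. Only Uhrf1 and Tet3 of these 5 held a CCAAT box (33.8% of all windows), with 1 each. The E2F-like words, found in 0.654% of all windows, were in none of the 5, but stood once in front of a further listed start of Uhrf1 and once in front of the last listed start of Dnmt1. The E-box was present in 6.02% of all windows and in none of the 5. The number of CG dinucleotides was 38 for Dnmt3a, 21 for Dnmt3b, 17 for Tet3, 15 for Tet1 and 10 for Uhrf1, against a median of 6 over all windows. Both Dnmt3b and the 4 genes with the closest correlations held GC boxes. A cluster does not tell which start was used.

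The maintenance pair varied little among the lines. Dnmt1 read 8.25, 7.89 and 7.87 in FB1, FB2 and FB3, 8.09, 7.91 and 7.85 in KAA1, KAA2 and KAA3, and 7.94, 7.98 and 8.18 in WM1, WM2 and WM3. Uhrf1 read 9.33, 9.06 and 8.98 in mESCFB, 9.26, 9.07 and 9.10 in mESCKAA, and 8.94, 9.10 and 9.10 in mESCWM, in the same order of lines. For both genes FB1 was the highest line, and the 3 groups overlapped. The SD over the 9 lines was 0.15 for Dnmt1 and 0.12 for Uhrf1, below the median SD of 0.17 among clusters at or above the median level.

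The de novo enzymes and their partner were among the more variable transcripts. Dnmt3a read 9.10, 8.02 and 8.27 in mESCFB, 9.19, 7.77 and 8.27 in mESCKAA, and 7.68, 8.24 and 8.62 in mESCWM. FB1 and KAA1 stood above the rest, and the span from WM1 to KAA1 was 1.51 on the log2 scale. Its SD of 0.53 was larger than that of 98.5% of the clusters at or above the median level. Dnmt3b read 8.44, 7.83 and 8.15 in mESCFB, 8.41, 7.82 and 8.11 in mESCKAA, and 8.09, 7.18 and 8.22 in mESCWM. The low value of WM2 stood apart from the other 8 lines. Dnmt3l read 9.68, 9.66 and 9.43 in mESCFB, 9.61, 8.65 and 8.89 in mESCKAA, and 8.38, 8.80 and 9.41 in mESCWM. The 3 mESCFB lines were high, whereas each IVF group held 1 line near them (KAA1 and WM3) and 2 lines below.

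Among the erasers, Tet1 spanned the widest range. It read 8.56, 8.04 and 7.81 in mESCFB, 8.52, 7.69 and 7.67 in mESCKAA, and 7.35, 8.32 and 7.85 in mESCWM. The other Tet1 clusters had the same highest lines, FB1 and KAA1, with spans of 1.25 and 1.46. Tet2 read 4.90, 5.12 and 4.84 in mESCFB, 4.90, 4.53 and 4.62 in mESCKAA, and 4.56, 5.29 and 4.90 in mESCWM. WM2 and FB2 were its highest lines. Tet3 read 5.27, 4.99 and 4.94 in mESCFB, 5.15, 5.04 and 5.04 in mESCKAA, and 4.90, 5.04 and 4.89 in mESCWM. Tet2 and Tet3 lay close to the median level of all clusters (4.67), where a larger part of an array signal is background. The second Tet3 cluster lay below that median, at a mean of 4.41, and was highest in FB3, so the 2 clusters of Tet3 disagree on the highest line.

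The corepressor Trim28 had the smallest SD of the set, 0.12. It read 9.52, 9.49 and 9.40 in mESCFB, 9.63, 9.35 and 9.45 in mESCKAA, and 9.33, 9.56 and 9.65 in mESCWM. The 4 clusters shared by Tdg and Tdg-ps2 had means between 8.10 and 8.29, and each was lowest in WM2 and highest in KAA1. For 4 members (Dnmt3a, Uhrf1, Tet2 and Tet3) at least 2 lines had the same value to 5 decimals.

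**Figure D1:**
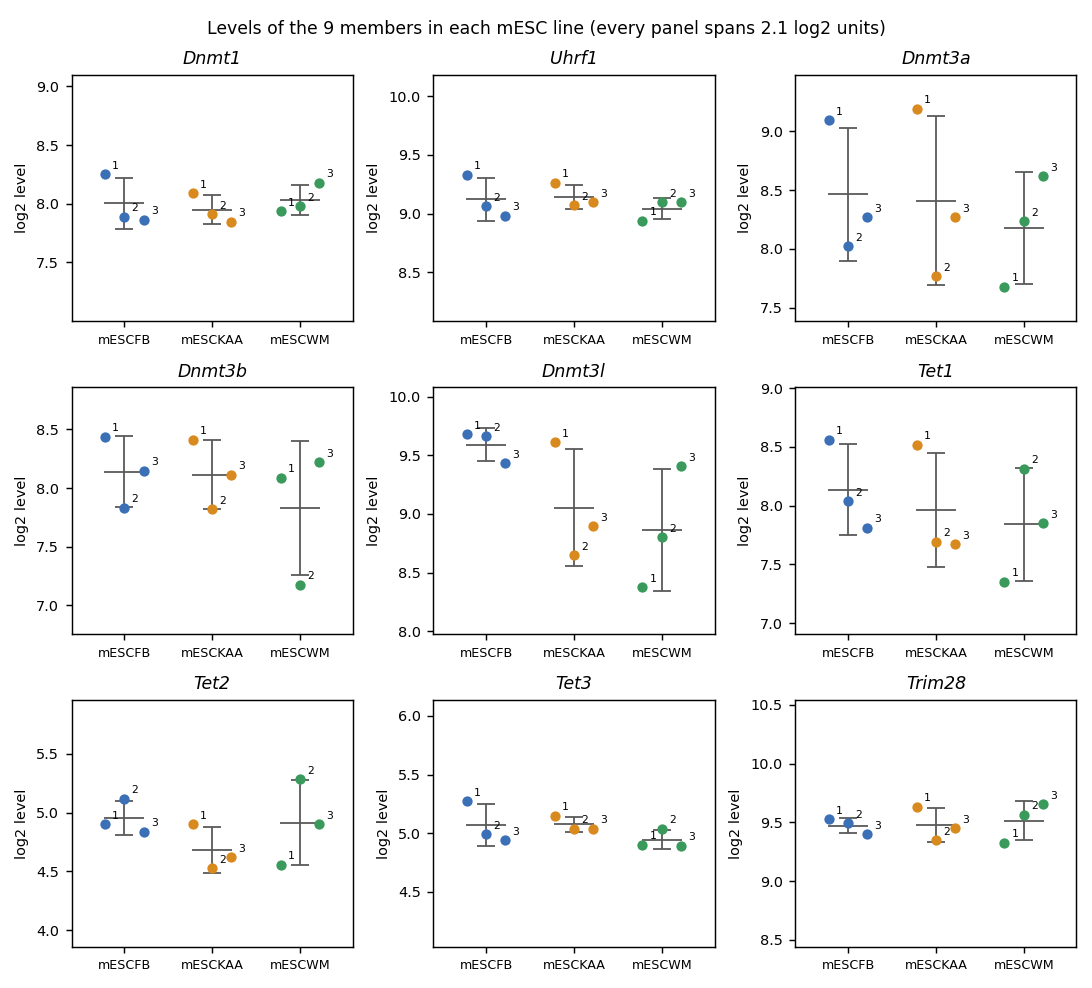
Log2 level (y axis) of the 9 members with a cluster of their own in each line, by group (x axis), with points numbered by line and bars for mean ± SD of 3 lines. FB1 and KAA1 are the highest lines for Dnmt3a (9.10 and 9.19) and Tet1 (8.56 and 8.52), and Dnmt3l is the only panel in which 2 groups do not overlap.

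Whether the origin of the blastocyst left a difference in these genes was asked in 3 comparisons. No member differed in any of them with limma, a linear model over all 9 lines whose p-values were adjusted over all tested clusters (two-sided, Benjamini-Hochberg). Nor did any other cluster, so the share called was 0% in mESCKAA against mESCFB, 0% in mESCWM against mESCFB and 0% in mESCWM against mESCKAA. At an unadjusted p under 0.05 the background was 4.81%, 5.89% and 6.29% of the clusters, and 0, 1 and 0 of the 9 members passed. The single gene was Dnmt3l in mESCWM against mESCFB. By the rank product, the test that the study's methods name, 0 of the 9 members passed at a percentage of false positives under 0.05, where 0.124%, 0.0726% and 0.303% of all clusters did. The moderated F test over the 3 groups called 0 members and 0% of all clusters, and at an unadjusted p under 0.05 it gave 5.4% of the clusters and 0 members. The p-values measure only the spread between these lines, and the number of arrays limits the precision.

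Dnmt3l had the largest differences of the set. Its mean was 9.59 ± 0.14 in mESCFB, 9.05 ± 0.50 in mESCKAA and 8.86 ± 0.52 in mESCWM (SD, n = 3 lines each). The difference was -0.73 ± 0.29 (SE) for mESCWM minus mESCFB, with a limma adjusted p of 0.819, and -0.54 ± 0.29 for mESCKAA minus mESCFB, with a limma adjusted p of 0.918. All 3 mESCWM lines lay below all 3 mESCFB lines, by a gap from 9.41 in WM3 to 9.43 in FB3. The same held in either direction for 8.13% of all clusters, and for 1 of the 9 members. The unadjusted p of this difference was 0.0364, and it was above 0.05 when FB1, FB2, FB3, WM1 or WM2 was left out. Without FB1, KAA2 and WM3 the difference was -0.96, with a limma adjusted p of 0.433. Without WM3 it was -1.003, and the rank product then called Dnmt3l lower, with a percentage of false positives of 0.0430. In the other 2 comparisons no member was free of overlap, against 8.08% of all clusters for mESCKAA with mESCFB and 8.66% for mESCWM with mESCKAA.

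None of the differences of the remaining members reached an unadjusted p under 0.05 in limma. For mESCWM minus mESCFB the differences were -0.31 ± 0.29 (SE) for Dnmt3b, -0.30 ± 0.31 for Tet1 and -0.28 ± 0.41 for Dnmt3a. Tet3 differed by -0.12 ± 0.10, Uhrf1 by -0.08 ± 0.11, Tet2 by -0.04 ± 0.18, Dnmt1 by 0.03 ± 0.13 and Trim28 by 0.04 ± 0.11. For mESCKAA minus mESCFB, Tet2 differed by -0.27 ± 0.18 and Tet1 by -0.18 ± 0.31, and the other 6 besides Dnmt3l lay between -0.05 and 0.02. One of these, Dnmt3a, turned from -0.05 to 0.59 when FB1, KAA2 and WM3 were left out. For mESCWM minus mESCKAA, Tet2 differed by 0.23 ± 0.18, Dnmt3b by -0.29 ± 0.29 and Dnmt3a by -0.23 ± 0.41, and the other members by -0.19 to 0.08. The median over the 9 members was -0.05, -0.12 and -0.12 in the 3 comparisons, and over the clusters with a level at least at the median it was -0.03, -0.01 and 0.02. The comparisons share their lines. The 4 clusters shared by Tdg and its pseudogene differed by -0.07 to -0.03 for mESCWM minus mESCFB and by 0.06 to 0.09 for mESCKAA minus mESCFB.

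**Figure D2:**
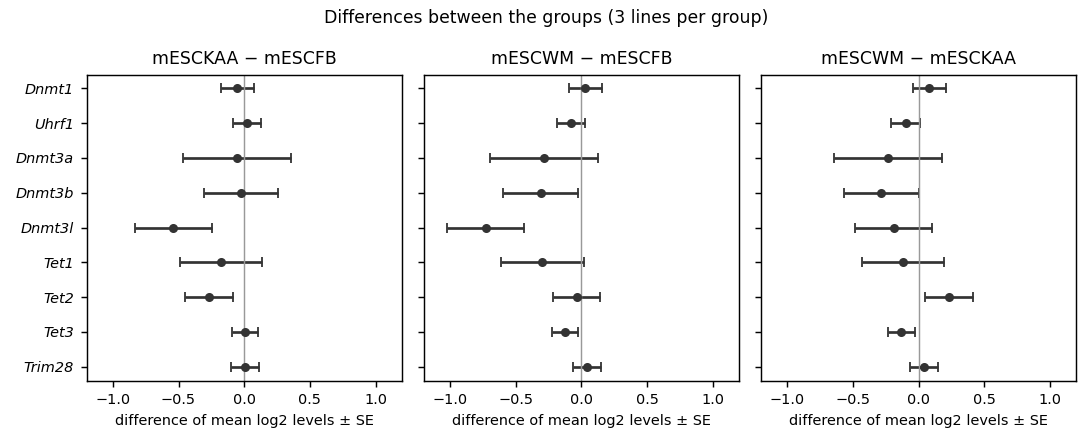
Difference of mean log2 levels (x axis, bars for SE from limma) of each member (y axis) in the 3 comparisons, with 3 lines per group. Dnmt3l lies at -0.54 and -0.73 against mESCFB, and Tet2 at -0.27 for mESCKAA minus mESCFB.

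Across the lines, and regardless of the group, the members moved together. Both FB1 and KAA1 had all 9 members above their 9-line mean, with median deviations of 0.26 and 0.16 on the log2 scale. Of the clusters in the level range above the median, 62.5% lay above their mean in FB1 and 48.9% in KAA1. At the other end, KAA2 and WM1 had 1 of 9 members above the mean, with median deviations of -0.21 and -0.16, and 43.1% and 56.9% of the same clusters lay above their mean in these lines. There were thus a high and a low line within mESCKAA itself, and 7 of the 9 members had their highest level in FB1 or KAA1.

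Of the 36 pairs of members, 35 had a Pearson's r above 0, with a median of 0.596. An r of at least 0.7 was found for 10 pairs, against 3.14% of all pairs drawn from the clusters above the median level, whose median r was 0.0195. All 10 also reached 0.7 when the deviations from the group means were correlated, where 15 pairs did. This is no separate test, since the 10 pairs were picked on the same lines and FB1 and KAA1 lie in different groups. The share of all pairs was not computed for these deviations, so the count of 15 has no background. Exact permutation tests over all 362880 orders of the lines gave an unadjusted p under 0.05 for 12 pairs, and 1 pair remained after Benjamini-Hochberg adjustment over the 36 pairs. By Spearman's rho 11 pairs had an unadjusted exact p under 0.05 and 0 passed after adjustment.

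The pair that passed was Uhrf1 and Tet3, with an r of 0.905 (two-sided exact permutation p = 0.00134, adjusted p = 0.0482) and a rho of 0.724 (exact permutation p = 0.0333, adjusted p = 0.120). With the second Tet3 cluster in its place the r was 0.17 (adjusted p = 0.797 by exact permutation), so the relation holds for 1 of the 2 clusters of Tet3. The adjusted p of this pair was also above 0.05 when FB1, FB3, KAA1, KAA2 or WM1 was left out. Both genes varied little, with an SD of 0.12 each, and Tet3 lay close to the median level. KAA3 and WM2 had identical values in both genes (9.09616 for Uhrf1 and 5.03853 for Tet3). Uhrf1 also followed Dnmt3a, with an r of 0.865 (exact permutation p = 0.00437, adjusted p = 0.0524), and Tet1, with an r of 0.856 (exact permutation p = 0.00281, adjusted p = 0.0506). Dnmt3a and Tet1 had an r of 0.810 (exact permutation p = 0.00913, adjusted p = 0.0769), and Tet1 and Tet3 an r of 0.785 (exact permutation p = 0.0107, adjusted p = 0.0769). What these 4 genes shared was a high level in FB1 and KAA1. In other lines they parted, and WM3 was the third highest line for Dnmt3a (8.62) but the lowest for Tet3 (4.89).

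Much of this rested on FB1 and KAA1. These were the 2 lines farthest from the median of the first gene in 8 of the 10 pairs with an r of at least 0.7. Without them, Uhrf1 and Tet3 had an r of 0.577 (exact permutation p = 0.188), Uhrf1 and Tet1 of 0.60 (exact permutation p = 0.173), Dnmt3a and Uhrf1 of 0.518 (exact permutation p = 0.231) and Dnmt3a and Tet1 of 0.470 (exact permutation p = 0.279). Of the 10 pairs, 1 kept an exact permutation p under 0.05 without its 2 farthest lines, namely Dnmt3a and Trim28 (r of 0.767 over 9 lines and 0.836 over 7). Tet1 and Tet2 went the other way, from an r of 0.673 over all lines to 0.924 without FB1 and KAA1 (exact permutation p = 0.00119). Without FB1, KAA2 and WM3, the lines with a Y-linked signal, 11 pairs had an r of at least 0.7, of which 7 were among the 10, and Uhrf1 and Tet3 had an r of 0.995 (exact permutation p = 0.00278, adjusted p = 0.0750). The share of all pairs at this r was not computed over the remaining lines.

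Over all 9 lines Dnmt3b had a low r with several members, and WM2 weighed heavily in this. Tet2 was also loosely tied to some members, with an r of 0.159 with Tet3, 0.242 with Dnmt1 and 0.262 with Uhrf1. With Tet1 and Trim28 the r of Tet2 was 0.673 and 0.650. The only negative r of the 36 pairs was that of Dnmt3b with Tet2, at -0.442 (exact permutation p = 0.238), which became 0.22 without WM2 and -0.71 without FB1, KAA2 and WM3. The r of Dnmt3b with Tet1 was 0.0766 and with Trim28 0.113. Its closest member was Dnmt3a, at an r of 0.553 (exact permutation p = 0.122) and a rho of 0.828 (exact permutation p = 0.00829, adjusted p = 0.120). That rho was the highest of the 36 pairs. WM2, the lowest line for Dnmt3b at 7.18, was the highest for Tet2 at 5.29 and the third highest for Tet1 at 8.32. Without it, the r of Dnmt3b was 0.875 with Dnmt3a, 0.735 with Dnmt1, 0.663 with Uhrf1 and 0.623 with Tet1. It was 0.591 with Trim28 and 0.520 with Tet3.

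**Figure D3:**
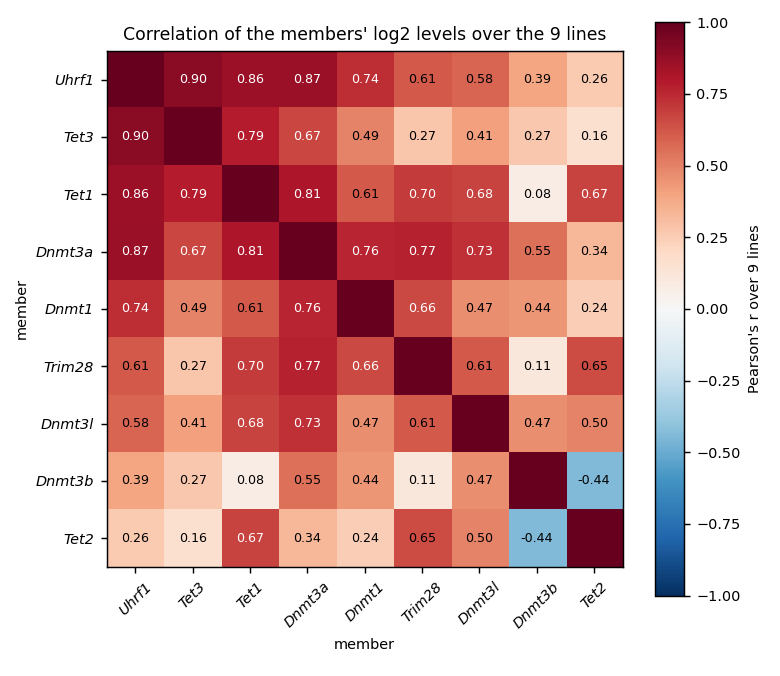
Pearson's r over the 9 lines (colour and printed value) for each pair of the 9 members on both axes. Uhrf1, Tet3, Tet1 and Dnmt3a form a block with r from 0.67 to 0.90, and Dnmt3b with Tet2 is the only negative pair (-0.44).

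**Figure D4:**
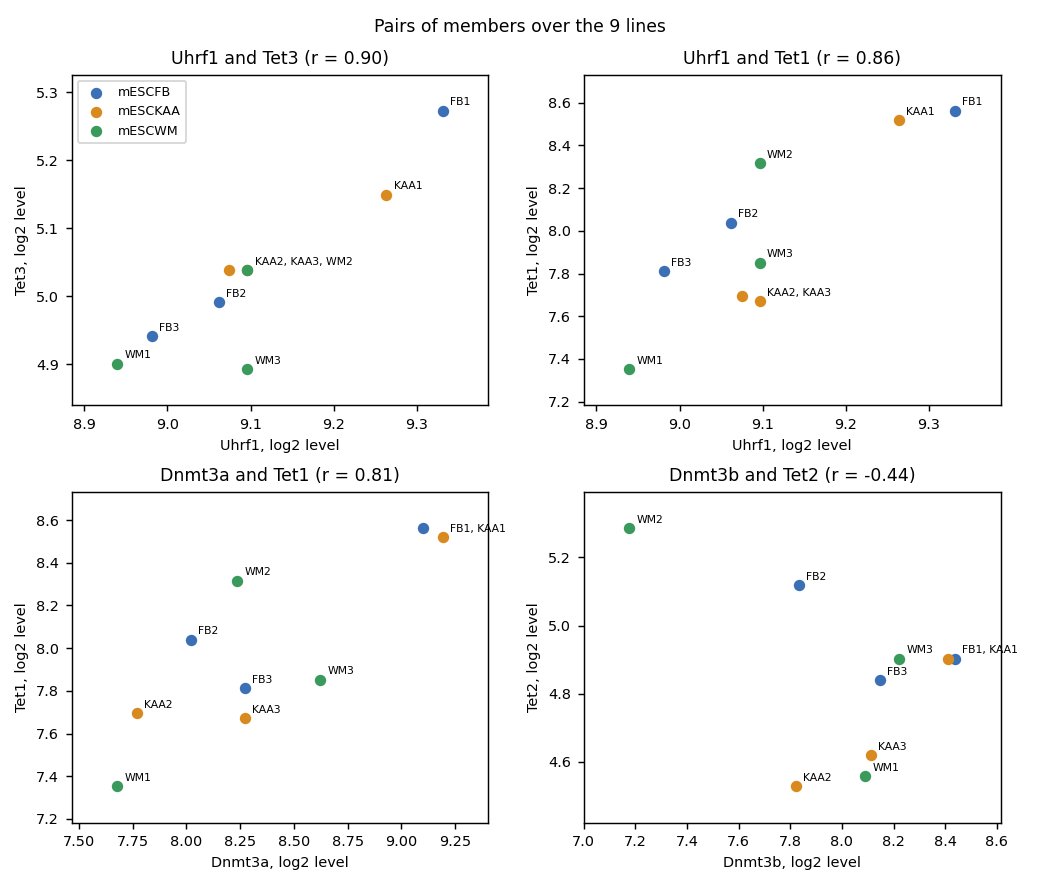
Log2 levels of 4 pairs of members in the 9 lines, coloured by group, with 1 member on each axis. FB1 and KAA1 lie at the upper right for Uhrf1 with Tet3, Uhrf1 with Tet1 and Dnmt3a with Tet1, and WM2 lies at the upper left for Dnmt3b with Tet2.

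The state of the lines, read from lists of other genes, moved with some members. For each list the mean deviation of its genes from their 9-line means was taken in every line, and 63 relations of members with 7 such indices were computed, of which 16 had an unadjusted exact permutation p under 0.05 and 3 passed after adjustment over the 63. None passed when FB1 was left out, or without FB1, KAA2 and WM3, where the r of the 3 relations was 0.908 for Dnmt3b, 0.925 for Dnmt3a and 0.929 for Tet2. Dnmt3b followed the mean index of the 8 measured genes of formative and primed epiblast, a list that includes Otx2 and Pou3f1, with an r of 0.902 (exact permutation p = 0.000121, adjusted p = 0.00764) and a rho of 0.883 (exact permutation p = 0.00308, adjusted p = 0.0484). The r was 0.962 without FB1 and KAA1 and 0.883 within groups. Genes of this list did not all run alike. Otx2 (6.55 and 6.51) and Lef1 (7.17 in both) were highest in FB1 and KAA1, as Dnmt3b was. Fgf5 was lowest in WM2 (4.21), as Dnmt3b was, but read only 4.74 in FB1 and was highest in FB2 (5.35). With the naive pluripotency genes, such as Klf4, Esrrb and Tfcp2l1, Dnmt3b had an r of -0.780 (exact permutation p = 0.0134, adjusted p = 0.101), which was -0.231 without FB2 and WM2 (exact permutation p = 0.619). In WM2 the naive index was at its highest, 0.45, and the formative index at its lowest, -0.21.

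Tet2 followed the mean index of the 16 measured germline genes of a list known for silencing by DNA methylation, with an r of 0.909 (exact permutation p = 0.000959, adjusted p = 0.0201) and a rho of 0.949 (exact permutation p = 0.000364, adjusted p = 0.0153). Without FB2 and WM1, the lines at the ends of that index, the r was 0.990. Single genes of the list could run otherwise. Hormad1, like Tet2, was highest in WM2 and FB2 (6.52 and 6.45), whereas Ddx4 was lowest in WM2 (5.63). Of these 16 genes, 7 had a mean level at or above the median of the tested clusters. Tet2 with the naive genes had an r of 0.755 (exact permutation p = 0.0196, adjusted p = 0.101), which was 0.0537 without FB2 and WM2.

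Dnmt3a followed the mean index of the 20 measured S phase genes, which include Mcm2 to Mcm7 and Rrm2, with an r of 0.825 (exact permutation p = 0.000716, adjusted p = 0.0201) and a rho of 0.937 (exact permutation p = 0.000485, adjusted p = 0.0153). Uhrf1, itself transcribed in S phase, had an r of 0.824 with the same index (exact permutation p = 0.00441, adjusted p = 0.0594), and Tet3 of 0.776, Dnmt1 of 0.731 and Tet1 of 0.720. FB1 had the highest S phase index, 0.13, against -0.06 to 0.02 in the other 8 lines. Without FB1 the r with this index was 0.36 for Tet3, 0.40 for Dnmt1 and 0.64 for both Uhrf1 and Tet1. Without FB1 and KAA2, that of Dnmt3a was 0.926 (exact permutation p = 0.00675). Genes of the list parted in KAA1, the highest line for Dnmt3a. Mcm2 (9.39) and Ccne1 (10.31) lay above their means of 9.05 and 10.03 there. Mcm3 (8.55) and Mcm7 (8.76) lay below theirs of 8.62 and 8.81.

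All 9 members had a negative r with the feeder fibroblast index, and all 9 had a positive r with the S phase index (0.26 to 0.82). The members were correlated with each other, and the share of all clusters with either sign was not computed. The r with the feeder fibroblast index was largest in size for Dnmt3l, at -0.869 (exact permutation p = 0.00472, adjusted p = 0.0594), with a rho of -0.883 (exact permutation p = 0.00308, adjusted p = 0.0484). This index was -0.11 to -0.07 in the mESCFB lines, -0.07 to 0.09 in the mESCKAA lines and 0.01 to 0.14 in the mESCWM lines, so it moved with the groups as Dnmt3l did. Within groups the r was -0.788. Dnmt3b had an r of -0.714 with this index (exact permutation p = 0.0197, adjusted p = 0.101) and -0.803 within groups, and the other 7 members lay between -0.62 and -0.10. Of its 23 genes, 19 lay higher in mESCWM than in mESCFB, with a median difference of 0.12, and 0 passed limma's adjusted threshold. Of the clusters with a level at least at the median, 47.2% lay higher in this comparison. The genes of this index parted in WM1, where it was 0.10. Fn1 (8.65) and Tagln (9.50) were highest there of all lines. Col1a2 (4.55) was lowest there, and Dcn (2.97) lay below its mean of 3.14. Whether the index follows the share of fibroblasts was not tested. The part of this index in the levels of Dnmt3l and Dnmt3b was not tested. Uhrf1 and Tet3 followed the index of primitive endoderm and trophectoderm genes, with an r of 0.854 (exact permutation p = 0.00599, adjusted p = 0.0628) and 0.796 (exact permutation p = 0.0122, adjusted p = 0.101), and both rested on FB1 and KAA1, without which the r was 0.520 and 0.486. Genes of that list parted in these lines. Lama1 (6.95 and 7.32) and Dab2 (7.76 and 8.29) were highest in FB1 and KAA1. Krt8 (10.76 and 10.95) and Krt18 (11.26 and 11.38) were lowest there. All 16 genes of that list lay lower in mESCWM than in mESCKAA, with a median difference of -0.47 and 0 limma calls. Of the clusters with a level at least at the median, 55.2% lay higher in this comparison, with a median of 0.02. The index of that list was 0.55 in KAA1, 0.13 in KAA2 and -0.02 in KAA3, against -0.23 to -0.10 in mESCWM. The part of these genes in the levels of Uhrf1 and Tet3 was not tested. The X-linked index was the median deviation of 351 X-linked clusters relative to autosomal ones. It was 0.29 in FB2 and 0.14 in FB3 against -0.10 to -0.01 in the other lines. Its r with the 9 members lay between -0.42 and 0.42. Within groups that r ran from -0.70 for Dnmt1 to 0.21 for Tet2, and was not tested.

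**Figure D5:**
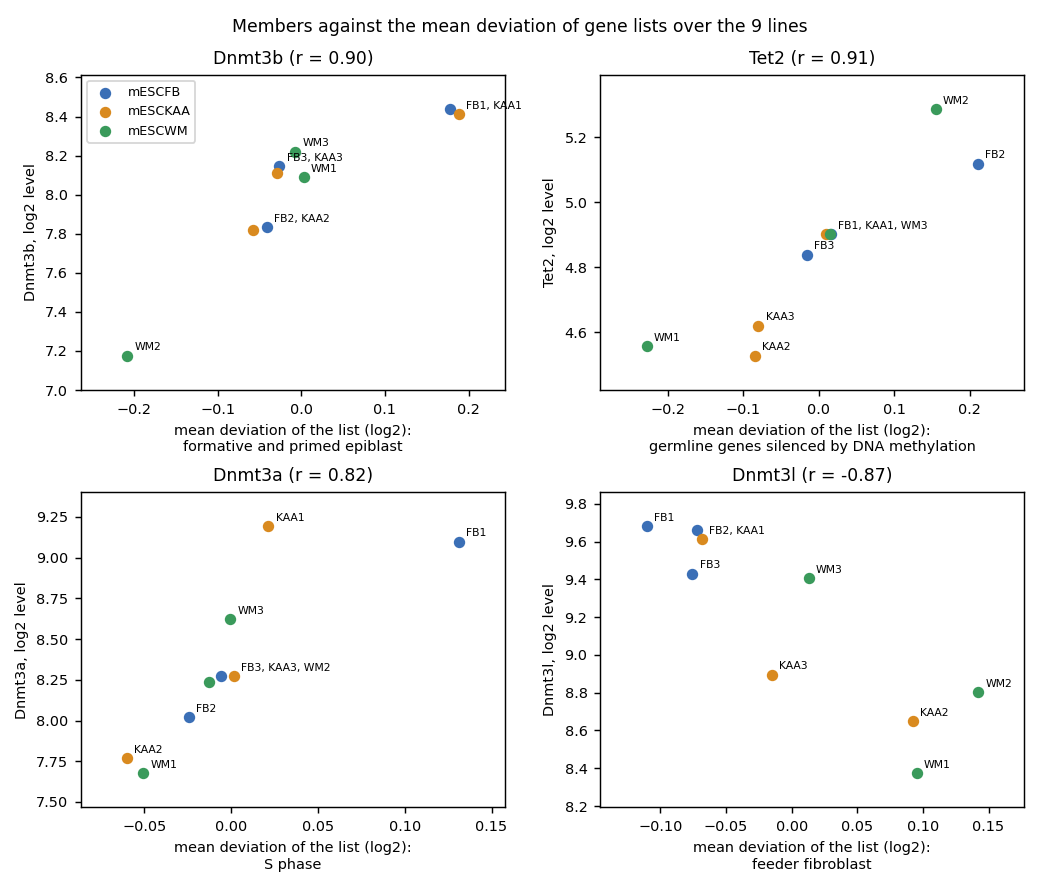
Log2 level of 4 members (y axis) against the mean deviation of a gene list from its 9-line mean (x axis, log2) in each line, coloured by group. Dnmt3b runs with the formative and primed epiblast list (r of 0.90), Tet2 with the germline list (0.91) and Dnmt3a with the S phase list (0.82), and Dnmt3l runs against the feeder fibroblast list (-0.87).

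The partners of the set in the same pathways gave no call either. Among 9 maintenance and replication partners, 10 partners of TRIM28, 8 methyl-CpG readers, 16 genes of demethylation and base excision, 3 of the methionine cycle and 13 that act on the marks and regulators DNMT3 responds to, 0 passed limma's adjusted threshold in any of the 3 comparisons. Of the 10 partners of TRIM28, 8 lay lower in mESCKAA than in mESCFB and 9 lower in mESCWM than in mESCFB, with median differences of -0.11 in both. These 2 comparisons share the mESCFB lines, and of the clusters with a level at least at the median 39.6% and 47.2% lay higher, with medians of -0.03 and -0.01. The largest shift by p among them was that of Morc3, a chromatin ATPase, at -0.37 ± 0.24 (SE) for mESCKAA minus mESCFB, where KAA2 alone lay at 6.45 against 7.29 to 7.61 in all other lines. Zfp57, which guides TRIM28 to imprinted loci, differed by -0.22 ± 0.18 for mESCWM minus mESCFB, and Zfp445, which shares that role, by 0.15 ± 0.11 for mESCKAA minus mESCFB.

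Downstream of the TET enzymes, the smallest p-values fell between the IVF groups. Lig3, a ligase of base excision repair, was 6.38, 5.84 and 6.04 in KAA1, KAA2 and KAA3 and 6.65, 6.73 and 6.45 in WM1, WM2 and WM3. The groups did not overlap, as was so for 8.66% of all clusters in this comparison, and the difference was 0.52 ± 0.15 (limma adjusted p = 0.765). Of the 16 genes of this list, 8 lay higher and 8 lower in mESCWM than in mESCKAA. Gadd45a and Gadd45g, which have been linked to active demethylation, differed the other way, by -0.54 ± 0.15 (limma adjusted p = 0.765) and -0.41 ± 0.14 (limma adjusted p = 0.771). Among maintenance partners Uhrf2, a paralog of Uhrf1, differed by 0.44 ± 0.19 for mESCWM minus mESCKAA, and Ehmt1 and Usp7 by 0.16 ± 0.10 and 0.19 ± 0.11. Among readers Mbd6, Mbd1 and Zbtb4 differed by at most 0.28 in size in the comparison with their smallest p. Dusp9, an X-linked phosphatase that restrains MAP kinase signaling, differed by -0.37 ± 0.13 for mESCWM minus mESCFB, Lin28a by -0.23 ± 0.11 in the same comparison, and the histone demethylase Kdm1a by 0.30 ± 0.11 for mESCWM minus mESCKAA. The methionine cycle genes Gnmt, Mtr and Mat2b differed by 0.12, 0.24 and -0.07 where their p was smallest.

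The genes whose pattern over the 9 lines was most like that of each member were found among about 10930 single-symbol clusters at or above the median level. Dnmt3b was most like Arhgap11a (r of 0.979) and Dut, which encodes dUTPase (r of 0.969). Uhrf1 was most like Suclg1 (0.975) and Letm1 (0.972), both mitochondrial, and Dnmt3l most like Spink1 (0.976) and Cebpd (0.941). Dnmt3a was closest to Thada (0.969) and Enpp3 (0.957), Tet3 to Pramel12 (0.967) and Iqcc (0.959), and Dnmt1 to Ptpn3 (0.957) and Cep41 (0.954). Tet1 was closest to Atf7ip (0.957), a cofactor of the histone methyltransferase SETDB1 in the TRIM28 pathway, and to Dlc1 (0.949). Tet2 was closest to Acp6 (0.949) and Igsf9b (0.939), and Trim28 to Ankrd35 (0.939) and Mif4gd (0.923). These were the highest of about 10930 correlations over 9 lines and carry no test. An r of at least 0.9 was shared with 38 clusters for Dnmt3b, 34 for Uhrf1, 33 for Dnmt3a, 21 for Tet3, 13 each for Tet1 and Dnmt1, 11 for Dnmt3l, 10 for Tet2 and 3 for Trim28. Spink1, the closest to Dnmt3l, ranged from 7.11 in WM1 to 9.86 in KAA1, a wider span than that of Dnmt3l itself.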

How the data were processed

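Total RNA of 9 mESC lines was measured on Affymetrix mouse gene arrays. The submitters' notes list Expression Console and R 3.1.0, and the methods give RMA (affylmGUI). The deposited values are therefore log2 levels that the authors had corrected for background, normalized between arrays and summarised per transcript cluster. RMA can give lines identical values and compresses low signals. The labels gave each line its group and number. Of 35556 clusters, the 23410 with an annotated gene were tested, and symbols were updated through gene IDs for 21698 of the 21789 with 1 symbol. The members and gene lists were chosen with earlier results of these data known.

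Group differences came from a limma fit (version 3.58.1, R 4.3.3) with 1 mean per group and eBayes, two-sided. The rank product used 9 pairwise differences and 100 permutations, written in numpy 2.4.6 on Python 3.11.15, and correlations used scipy 1.17.1, pandas 2.3.3 and exact permutation. Both fits were tested on simulated data. Motifs were counted in the 250 bases before RefSeq starts. Plots were drawn with matplotlib 3.10.9. Named genes are all members, for each the 2 genes with the highest r, and up to 3 genes per list with the smallest limma p. Other list genes named as examples, the fibroblast markers and Eif2s3y were chosen after their values were seen. Alternatives were other sets of clusters, quantile normalization, median centring, a replicate block, robust eBayes with a trend (statmod 1.5.0), Spearman's rho, other clusters of a member and leaving out lines. The build of the array annotation is not given in the sources used here.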

Additional observations from a re-analysis of the deposited data

How the results depend on the processing

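Under all 17 alternatives of the limma fit, 0 members passed the adjusted threshold in any comparison or in the F test, and the lowest adjusted p of a member was 0.408 (Dnmt3l). Of the 27 differences of members, 18 changed sign when 1 line or another was left out and 9 under some other alternative. The 9 include 7 that changed sign without FB1, KAA2 and WM3, and 3 that did so under quantile normalization or median centring. The unadjusted pass of Dnmt3l was lost with the replicate block and without FB1, FB2, FB3, WM1 or WM2. Members called by the rank product ranged from 0 to 1 for mESCWM against mESCFB when a line was left out (1 without WM3), and stayed at 0 at a percentage of false positives under 0.10. Over all clusters the rank product called 2 to 76 for mESCKAA against mESCFB (29 as reported), 6 to 53 for mESCWM against mESCFB (17) and 22 to 120 for mESCWM against mESCKAA (71). The number of correlated pairs was 0 under quantile normalization, under median centring, by Spearman's rho, without FB1, KAA2 and WM3 and with the other Tet3 cluster, and 2 with the next Tet1 cluster. Leaving out 1 line gave 0 to 9 pairs (0 without FB1, KAA1, KAA2 or WM1, 6 without WM2 and 9 without WM3). Relations with the indices numbered 0 to 4 when a line was left out (0 without FB1, 1 without KAA1 or WM1) and 0 without FB1, KAA2 and WM3, where 6 lines remain. The causes were not tested. The line numbers were not taken to pair the lines, since no label gives them a shared source and not every pair deviated together. Lines with the same number had correlated deviations over 0.1 in 6 of 9 pairs, and 6 of 9 lines correlated best with their own number, a hint of a shared factor from the data. The strongest pair was FB1 with KAA1 (0.457), the lines on which the correlations rest most, and the exact tests over all orders of the lines do not allow for it. With the replicate block limma called 0 members. After group and number means were taken off, 23 pairs had an r of at least 0.7. This count cannot be set against the 10 pairs over all lines. A high r comes more easily once such means are removed, and the share over all pairs was not computed there. Tet2 and Tet3 signals near the median limit what their differences can show.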
